A study of Oryctolagus cuniculus with 16 samples.

Results

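The genes described here are *TAGLN* and the genes of the smooth muscle contractile apparatus, measured by total RNA-seq in femoral heads from a rabbit model of Perthes disease and from control rabbits. The members were chosen by gene symbol from a list of 10, and 9 of them were found among the 20255 genes of the table: *TAGLN*, *ACTA2*, *MYH11*, *MYL9*, *TPM1*, *TPM2*, *LMOD1*, *CALD1* and *DES*. The other member, *CNN1*, matched no row and was not analysed here. The list was drawn up with the difference between the Perthes and control libraries in view, so the values of the members between these groups are given as a description, without a test. All 9 members passed the low-count filter.

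Smooth muscle cells line the walls of arteries and veins, and shorten when myosin filaments pull on actin filaments. Their contractile proteins are switched on together by serum response factor (SRF) with its coactivator myocardin or with the related MRTF proteins, which enter the nucleus when actin polymerizes. Pericytes share part of this set, and fibroblasts that become contractile during tissue repair, called myofibroblasts, take up smooth muscle actin and transgelin while mostly lacking the smooth muscle myosin heavy chain. In bone, such cells are found around the vessels of the marrow and in healing tissue.

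The Perthes group held 5 rabbits operated on at 8 weeks of age, in which the neck of the femur was tied off with a suture and the ligamentum teres was cut to stop blood flow to the epiphysis. The control group held 3 rabbits labelled wild type, and the animals of the Perthes group were likewise purchased as wild type, so the entry "Perthes' disease" in the genotype label stands for the operation. The age of the controls, a sham operation, the strain and the time from surgery to tissue collection are not given in the sources used here. RNA came from whole femoral head tissue, and each library came from a rabbit of its own. The third control library is coded 3 but titled replicate 2, and is called control rabbit 3 here.

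The 8 libraries held 26757087 to 29461482 counts each. Values are given as CPM, the usual counts scaled to a fixed library total, after TMM adjustment. The first principal component of log2 CPM carried 56.1% of the variance. On it Perthes rabbit 2 lay at 5.21, between the other Perthes rabbits at -93.65 to -24.7 and the controls at 49.0 to 97.0. On the second component Perthes rabbit 4 lay at -78.4 and the other 7 rabbits between -7.51 and 27.5. Changes are therefore also given without Perthes rabbit 4 where named. Among the named genes that are not members, leaving it out moved *TEAD1* (edgeR adjusted p = 0.0633) and *COL3A1* (0.0565) above the threshold of 0.05 used below, and *VWF* under it (0.0468). All 10 markers of bone and cartilage were detected in every rabbit, with *COL2A1*, the cartilage collagen gene, between 29008 and 116594 CPM. Of the marrow markers, *ALAS2* of red cell precursors ranged from 20.4 to 733 CPM in the Perthes rabbits and from 1555 to 1906 CPM in the controls. *KLF1* ranged from 0.101 to 10.7 CPM against 12.8 to 21.7 CPM, and *MPO* of granulocyte precursors from 0.675 to 77.4 CPM against 238 to 587 CPM. These 3 genes did not overlap between the groups, whereas the B cell gene *CD79B* did, with 9.01 to 14.8 CPM in the controls and 10.04 CPM in the highest Perthes rabbit. The part of this shift in the results below was not tested.

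*TAGLN* and *ACTA2* stood 13.3-fold and 11.8-fold higher on average in the Perthes femoral heads, and *TPM2*, *LMOD1* and *CALD1*, whose products also bind actin, were higher by less. The myosin genes *MYH11* and *MYL9*, together with *TPM1* and *DES*, overlapped between the groups. For 5 of the 9 members every Perthes rabbit lay above every control rabbit, a pattern found in 11.2% of all 15305 genes tested. For 0 members every Perthes rabbit lay below every control, a pattern found in 13.9% of the genes. Because this contrast was used to choose the members, nothing is read from these counts. The median log2 fold change (Perthes over control) of the 9 members was 1.04, beside 0.02 over all genes tested.

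*TAGLN* (gene 103344936) encodes transgelin, also called SM22, an actin-binding protein abundant in smooth muscle. Its levels in Perthes rabbits 1 to 5 were 163, 86.8, 145, 50.1 and 138 CPM. In control rabbits 1 to 3 they were 7.47, 11.0 and 7.82 CPM. The groups did not overlap, and the lowest Perthes rabbit was 4.57-fold above the highest control. The means were 117 ± 46.8 CPM (SD, n = 5) and 8.75 ± 1.93 CPM (SD, n = 3). The fitted log2 fold change, given throughout with its standard error (SE), was 3.74 ± 0.43. Only 0.503% of the genes tested had a larger log2 fold change. Without Perthes rabbit 4 the log2 fold change of *TAGLN* was 3.93. In this bulk tissue, more cells of a type and more RNA per cell cannot be told apart.

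*ACTA2* (gene 100009271), the smooth muscle alpha actin that is also the usual stain for myofibroblasts, had 156, 62.9, 180, 41.9 and 198 CPM in Perthes rabbits 1 to 5. The controls had 5.61, 12.5 and 14.2 CPM. The groups were again apart, and Perthes rabbits 2 and 4 were the lowest of their group, as they were for *TAGLN*. This gave a log2 fold change of 3.56 ± 0.62 (SE), from a mean of 10.8 ± 4.57 CPM in controls (SD, n = 3) to 128 ± 70.8 CPM in Perthes rabbits (SD, n = 5). It was 3.79 without Perthes rabbit 4.

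**Figure D1:**
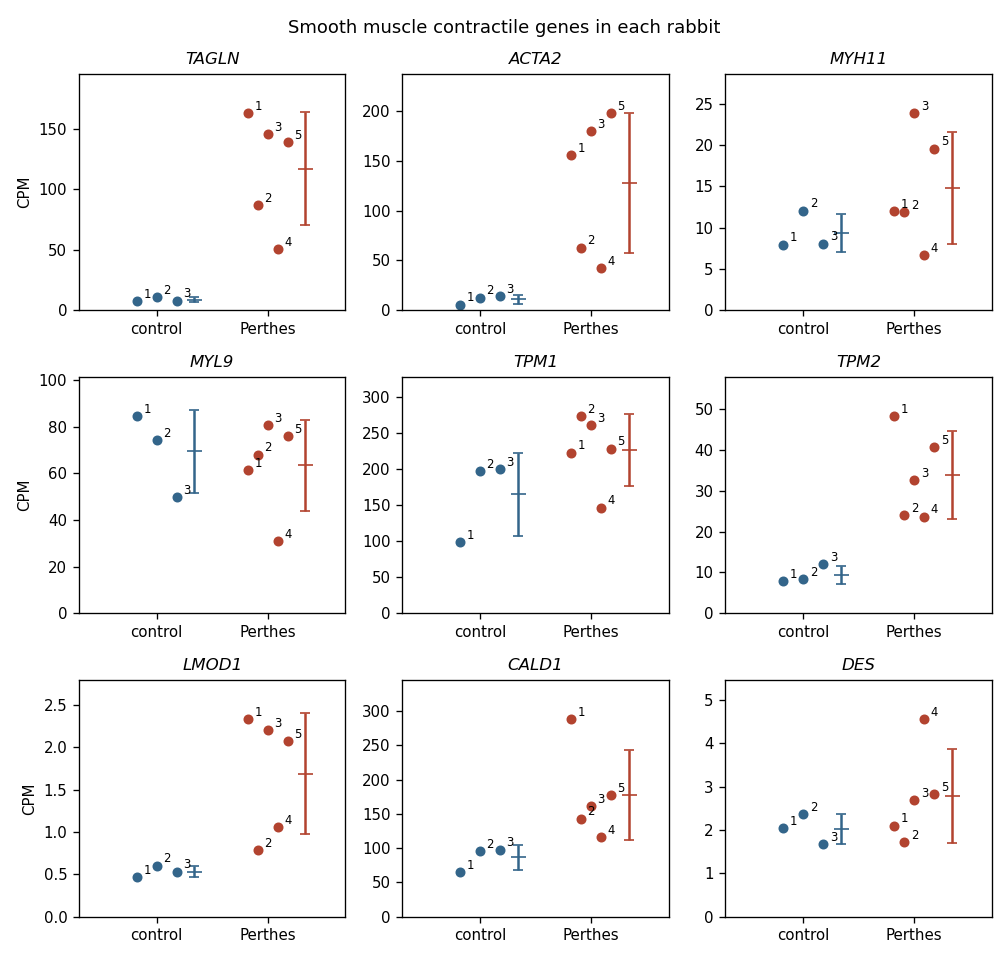
Level of each of the 9 members in CPM (linear axes from 0), with 1 point per rabbit labelled by its number and bars for the mean ± SD of 3 control and 5 Perthes rabbits. *TAGLN*, *ACTA2*, *TPM2*, *LMOD1* and *CALD1* show no overlap, and Perthes rabbit 4 is the lowest of its group in 7 of the 9 panels.

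*TPM2* (gene 100125984) encodes beta tropomyosin, which winds along actin filaments and governs access of myosin. It reached 48.2, 23.9, 32.5, 23.6 and 40.6 CPM in Perthes rabbits 1 to 5 and 7.86, 8.32 and 12.0 CPM in the controls. The lowest Perthes rabbit exceeded the highest control by 1.97-fold, and the log2 fold change was 1.85 ± 0.30 (SE), or 1.95 without Perthes rabbit 4. *TPM1* (gene 100125989), the alpha tropomyosin gene, is used by many cell types through alternative isoforms. Its levels were 222, 273, 261, 147 and 228 CPM in Perthes rabbits and 98.4, 197 and 200 CPM in controls. Here the groups overlapped through Perthes rabbit 4, which lay below control rabbits 2 and 3. The log2 fold change of *TPM1* was 0.46 ± 0.29 (SE) with all rabbits and 0.58 without Perthes rabbit 4, in which case *TPM1* became the sixth member with groups apart. The counts are per gene and do not separate the isoforms.

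*LMOD1* (gene 100358282) encodes leiomodin 1, which starts new actin filaments in smooth muscle. It had the fewest counts of the members, with 13, 17 and 16 counts in the controls against 69, 21, 60, 29 and 61 in Perthes rabbits. In CPM the Perthes rabbits had 2.33, 0.786, 2.20, 1.06 and 2.08, and the controls 0.464, 0.599 and 0.532. The groups were apart, but the lowest Perthes rabbit was only 1.31-fold above the highest control, at counts low enough for sampling to matter. For *LMOD1* the log2 fold change was 1.66 ± 0.45 (SE), or 1.79 without Perthes rabbit 4. *CALD1* (gene 100009077), which encodes caldesmon, an inhibitor of the actin-myosin interaction, had 288, 143, 161, 116 and 177 CPM in Perthes rabbits and 65.2, 95.9 and 97.8 CPM in controls. For this gene Perthes rabbit 1 stood above the others, and the gap between the groups was 1.19-fold. The log2 fold change of *CALD1* was 1.04 ± 0.31 (SE), with 0.79 without Perthes rabbit 1 and 1.15 without Perthes rabbit 4.

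*MYH11* (gene 100009145), the smooth muscle myosin heavy chain and the member most restricted to mature smooth muscle, had 12.0, 11.9, 23.9, 6.69 and 19.6 CPM in Perthes rabbits 1 to 5. The controls had 7.93, 12.1 and 8.05 CPM. Perthes rabbits 3 and 5 were above all controls, Perthes rabbits 1 and 2 lay just below control rabbit 2, and Perthes rabbit 4 was the lowest of all 8. For *MYH11* the log2 fold change was 0.66 ± 0.39 (SE), or 0.85 without Perthes rabbit 4. *MYL9* (gene 100343384) encodes the regulatory light chain whose phosphorylation starts smooth muscle contraction. Its levels were 61.5, 68.1, 80.8, 31.1 and 76.0 CPM in Perthes rabbits and 84.5, 74.3 and 49.9 CPM in controls. Its log2 fold change was -0.13 ± 0.30 (SE) and turned to 0.041 without Perthes rabbit 4 and to 0.034 without control rabbit 1, so no direction is given.

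*DES* (gene 100328890) encodes desmin, the intermediate filament of muscle cells, which skeletal muscle also makes in quantity. It had 2.09, 1.72, 2.68, 4.55 and 2.83 CPM in Perthes rabbits and 2.04, 2.36 and 1.66 CPM in controls. The groups overlapped, and Perthes rabbit 4, low for most members, was here the highest. The log2 fold change was 0.46 ± 0.35 (SE) with all rabbits and 0.21 without Perthes rabbit 4.

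**Figure D2:**
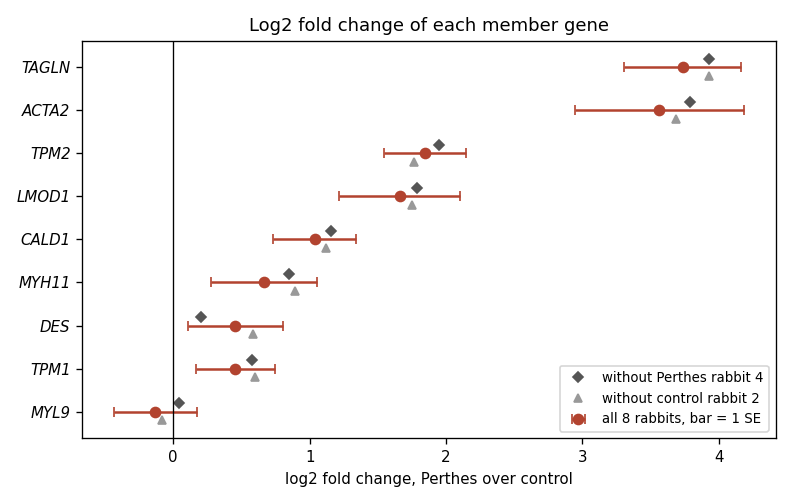
Log2 fold change of each member, Perthes over control, with all 8 rabbits (circle, bar of 1 standard error), without Perthes rabbit 4 (diamond) and without control rabbit 2 (triangle). With all rabbits the values run from -0.13 for *MYL9* to 3.74 for *TAGLN*, and *MYL9* changes sign without Perthes rabbit 4.

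The members therefore did not move by the same amount, which was followed through ratios of CPM within a rabbit. Such ratios do not depend on how libraries are scaled, and they compare rabbits rather than the absolute levels of genes of different length. *TAGLN* over *MYH11* was 13.5, 7.31, 6.08, 7.49 and 7.08 in Perthes rabbits 1 to 5 and 0.941, 0.909 and 0.971 in the controls. Between the medians it was 7.76-fold higher in the Perthes group. *ACTA2* over *MYH11* ranged from 5.30 to 12.9 in Perthes rabbits and from 0.707 to 1.77 in controls. In both ratios the actin-related gene stood higher against smooth muscle myosin in every Perthes rabbit than in any control. The members were chosen on this contrast, and *TAGLN* and *ACTA2* are those that differed most. The gaps in these ratios follow from that, so nothing further is read from them. *TAGLN* over *ACTA2*, in contrast, overlapped, with 0.699 to 1.38 in Perthes rabbits and 0.549 to 1.33 in controls.

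Some members were also set against a relative of broad expression. *TAGLN* over *TAGLN2*, the transgelin gene of non-muscle cells, was 0.902, 0.633, 0.949, 0.391 and 0.832 in Perthes rabbits 1 to 5 and 0.0409, 0.0899 and 0.0473 in controls. *ACTA2* over *ACTB*, the cytoplasmic beta actin gene, ranged from 0.0136 to 0.0389 in Perthes rabbits and from 0.000867 to 0.00430 in controls. *TPM2* over *TPM1* ranged from 0.0876 to 0.217 and from 0.0423 to 0.0799. None of these 3 ratios overlapped between the groups, and *TPM2* over *TPM1* had the narrowest gap. Their numerators are members chosen on this contrast, so nothing is read from these gaps either. *MYH11* over *MYH9*, the non-muscle myosin heavy chain, overlapped, at 0.0111 to 0.0305 in Perthes rabbits against 0.00477 to 0.0122 in controls.

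**Figure D3:**
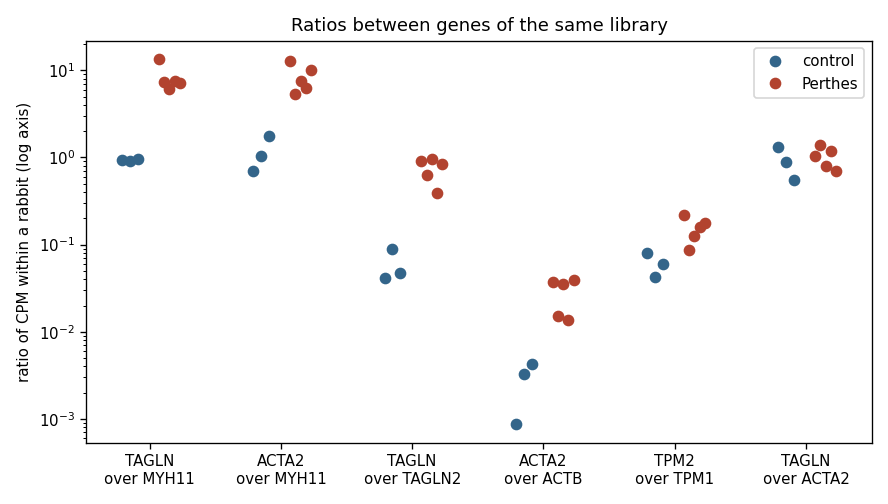
Ratio of the CPM of gene pairs within each library (log axis), with 1 point per control rabbit (blue, n = 3) and per Perthes rabbit (red, n = 5). *TAGLN* over *MYH11* lies between 6.08 and 13.5 in Perthes rabbits and near 1 in controls, whereas *TAGLN* over *ACTA2* overlaps.

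The members also differed in how widely they ranged within the Perthes group. The highest Perthes rabbit exceeded the lowest 4.72-fold for *ACTA2*, 3.57-fold for *MYH11* and 3.25-fold for *TAGLN*, but 1.86-fold for *TPM1*. In the 3 controls the corresponding spread was 2.54-fold for *ACTA2* and 1.47-fold for *TAGLN*. Perthes rabbit 4 was the lowest of its group for 7 of the 9 members, and Perthes rabbit 2 for the other 2, *LMOD1* and *DES*. Perthes rabbits 3 and 5 ranked first or second in 6 members each and were never among the 2 lowest, and Perthes rabbit 1 was the highest for 4 members (*TAGLN*, *TPM2*, *LMOD1* and *CALD1*).

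**Figure D4:**
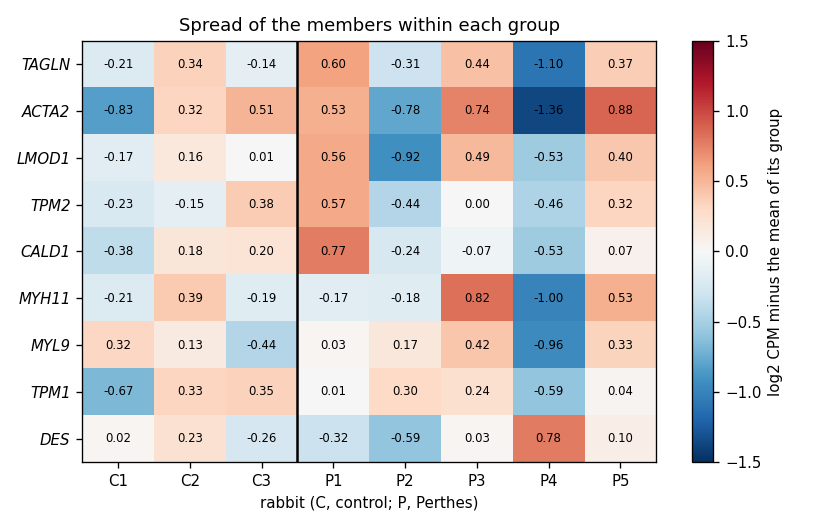
Log2 CPM of each member minus the mean of its group, for 3 control (C) and 5 Perthes (P) rabbits, with red above and blue below the group mean. Perthes rabbit 4 is below its group mean for every member except *DES*, down to -1.36 for *ACTA2*.

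Likeness to *TAGLN* was measured as the Pearson correlation of the log2 CPM deviations from the group means over the 8 libraries, a description only, since these points share libraries and group means. Of the members, *ACTA2* had an r of 0.87, *MYH11* 0.82, *LMOD1* 0.81, *CALD1* 0.77, *MYL9* 0.74, *TPM2* 0.69 and *TPM1* 0.55, and *DES* had -0.44. Among 10761 genes with a mean of at least 5 CPM, the named genes with the highest values were *ITGAX* (0.995), *RASGEF1B* (0.981), *CORO1C* (0.978), *RASSF4* (0.968) and *RNF128* (0.966). *ACTA2* came at rank 207, so many genes outside the contractile apparatus followed the same rabbits more closely. *ITGAX*, the integrin alpha X gene of myeloid cells, rose from 10.9 ± 4.24 CPM in controls (SD, n = 3) to 68.1 ± 41.5 CPM in Perthes rabbits (SD, n = 5), a log2 fold change of 2.64 ± 0.68 (SE, edgeR adjusted p = 0.0331), although its groups overlapped. The call of *ITGAX* was lost without Perthes rabbit 1, 3 or 5 or any control rabbit.

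Genes other than the members were tested with edgeR's quasi-likelihood test over all 15305 genes and called at an adjusted p below 0.05. It called 951 genes higher in Perthes rabbits, or 6.21%, and 1356 lower, or 8.86%. Of these calls 41.2% were higher, against 28.5% (678 higher, 1705 lower) when libraries were scaled by their totals without TMM. The number of calls rested on single libraries, as it was 1031 without Perthes rabbit 3, 901 without Perthes rabbit 5, 257 without control rabbit 1 and 0 without control rabbit 2. In that last edgeR fit 3722 genes had an unadjusted p below 0.05, and DESeq2 called 3636 genes with all rabbits.

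Of 30 further genes of smooth muscle, 26 were tested, 2 rose, 3 fell and 21 did not pass the test, close to the shares over all genes. Their median log2 fold change was 0.24. *ACTG2*, the enteric smooth muscle gamma actin, had 8.34, 6.63, 17.6, 4.48 and 22.0 CPM in Perthes rabbits and 0.393, 0.564 and 0.931 CPM in controls. The groups were apart, as for *ACTA2*, with a log2 fold change of 4.22 ± 0.66 (SE, edgeR adjusted p = 0.0120). *ACTG2* and *ACTA2* encode nearly identical proteins, and the deposited counts of both were whole numbers in all 8 libraries. This does not hold for *TAGLN* and *MYH11*, whose counts had fractions in 8 and 6 libraries. *FBLIM1*, which encodes the actin-anchoring protein filamin-binding LIM protein 1, rose from 2.77 ± 1.11 CPM in controls (SD, n = 3) to 9.65 ± 2.94 CPM in Perthes rabbits (SD, n = 5), a log2 fold change of 1.80 ± 0.37 (SE, edgeR adjusted p = 0.0166).

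The smooth muscle genes that fell included *IRAG1* and *PPP1R12B*. *IRAG1* mediates relaxation by cyclic GMP in smooth muscle and is also active in platelets. It fell from 32.5 ± 9.89 CPM in controls (SD, n = 3) to 4.70 ± 3.96 CPM in Perthes rabbits (SD, n = 5), a log2 fold change of -2.79 ± 0.57 (SE, edgeR adjusted p = 0.0171). *PPP1R12B*, a subunit of the phosphatase that relaxes myosin, had a log2 fold change of -0.71 (edgeR adjusted p = 0.0246). The myosin light chain kinase gene *MYLK* did not pass the test, at a log2 fold change of -0.14 ± 0.35 (SE), and was lowest in Perthes rabbit 4 with 26.1 CPM against 63.4 to 93.9 CPM in the other Perthes rabbits. *MYLK* was named after its values were seen. The calls in this list numbered 3 without Perthes rabbit 5, 1 without control rabbit 1 and 0 without control rabbit 2, where 7 had an unadjusted p below 0.05 in edgeR. DESeq2 called 7 with all rabbits.

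A list of 20 genes held SRF, its coactivators and related regulators, among them *KLF4*, which represses smooth muscle genes. All were tested, and 6 rose and 1 fell, that is 30.0% and 5.0% of them, beside 6.21% and 8.86% of all genes. Their median log2 fold change was 0.49. The central factors *SRF* and *MYOCD* themselves did not pass the test. *SRF* averaged 34.3 ± 3.55 CPM in the Perthes group (SD, n = 5) against 44.8 ± 10.8 CPM in the controls (SD, n = 3), and the log2 fold change was -0.39 ± 0.18 (SE, edgeR adjusted p = 0.171). *MYOCD*, the myocardin gene, was hardly detected, at 0.252 ± 0.200 CPM (SD, n = 5) and 0.802 ± 0.436 CPM (SD, n = 3). For *MYOCD* the log2 fold change was -1.66 ± 0.65 (SE, edgeR adjusted p = 0.114).

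The MRTF genes, whose products couple SRF to actin, differed in sign. *MRTFA* was lower on average, at 28.3 to 50.2 CPM in Perthes rabbits and 49.7 to 126 CPM in controls, and edgeR did not call it (adjusted p = 0.0526). *MRTFA* was called lower by DESeq2 (adjusted p = 0.0148), and by edgeR with library totals (0.0311), with the stricter count filter (0.0466), without Perthes rabbit 2 (0.0495) or without control rabbit 3 (0.0318). *MRTFB* had a log2 fold change of 0.52 ± 0.19 (SE, edgeR adjusted p = 0.0986). *KLF4*, which represses smooth muscle genes in dedifferentiating cells, was at 9.82 ± 0.308 CPM (SD, n = 5) and 9.96 ± 2.55 CPM (SD, n = 3).

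The regulators that rose were *GATA6*, *TEAD1*, *RHOB*, *RHOC*, *FHL2* and *TGFB1I1*. *RHOB* and *RHOC* encode small GTPases that promote actin polymerization. *RHOB* rose from 63.1 ± 14.6 CPM in controls (SD, n = 3) to 125 ± 22.3 CPM in Perthes rabbits (SD, n = 5), a log2 fold change of 0.99 ± 0.22 (SE, edgeR adjusted p = 0.0216). *RHOC* rose by 0.94 on the log2 scale (standard error 0.22, adjusted p = 0.0229 from edgeR). *TEAD1*, a partner of the YAP coactivators that also binds smooth muscle promoters, rose by 1.03 ± 0.29 (SE, edgeR adjusted p = 0.0446). For all 3 genes every Perthes rabbit lay above every control. The call of *TEAD1* was lost with library totals (edgeR adjusted p = 0.0739), without any single Perthes rabbit except rabbit 2 and without control rabbit 1 or 2, at adjusted p up to 0.138. The calls of *RHOB* and *RHOC* were lost without Perthes rabbit 3 or 5 or control rabbit 1 or 2.

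*GATA6*, a transcription factor of vascular smooth muscle, had 1, 2 and 1 counts in the controls against 31, 7, 25, 46 and 22 in Perthes rabbits. The ratio of the summed counts, scaled by library, was 20.2, with an exact 95% interval from 7.69 to 75.1 that covers counting error only (edgeR adjusted p = 0.0133). The regulator that fell was *KLF5*, with a log2 fold change of -1.80 ± 0.37 (SE, edgeR adjusted p = 0.0166). Of these 20 regulators, edgeR called 3 without Perthes rabbit 3, 2 without Perthes rabbit 5 and 0 without control rabbit 1 or control rabbit 2. At an unadjusted p below 0.05 those last fits had 9 and 11, and DESeq2 called 10 with all rabbits.

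Mural cells, the pericytes and smooth muscle cells that wrap vessels, were followed through 16 marker genes, of which 14 were listed and 13 tested. A total of 3 rose, or 23.1%, and 0 fell, with 6 at an unadjusted p below 0.05 in edgeR. The median log2 fold change of the list was 0.71. *RGS5*, *PDGFRB* and *NOTCH3*, the usual pericyte markers, did not pass the test in edgeR, whereas DESeq2 called *RGS5* (adjusted p = 0.0414) and *NOTCH3* (0.0325) higher. EdgeR also called *RGS5* without Perthes rabbit 2 (adjusted p = 0.0451) and *NOTCH3* without Perthes rabbit 1 (0.0366). *RGS5* was at 55.9 to 124 CPM in Perthes rabbits and 31.2 to 61.9 CPM in controls, a log2 fold change of 0.83 ± 0.30 (SE, edgeR adjusted p = 0.0899). *PDGFRB* was at 381 ± 93.2 CPM (SD, n = 5) and 289 ± 105 CPM (SD, n = 3). The log2 fold change of *NOTCH3* was 0.71 ± 0.25 (SE, edgeR adjusted p = 0.0859).

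The mural markers that rose were *CD248*, *ABCC9* and *KCNJ8*. *CD248*, which encodes endosialin of pericytes and activated fibroblasts, had 38.3, 26.4, 31.9, 4.62 and 41.1 CPM in Perthes rabbits and 0.50, 0.917 and 2.63 CPM in controls. Perthes rabbit 4 was again the lowest of its group, and the log2 fold change was 4.39 ± 0.82 (SE, edgeR adjusted p = 0.0139). *ABCC9* and *KCNJ8* encode the subunits of the ATP-sensitive potassium channel of mural cells. *ABCC9* rose from 17.5 ± 1.76 CPM in controls (SD, n = 3) to 61.1 ± 17.5 CPM in Perthes rabbits (SD, n = 5), a log2 fold change of 1.80 ± 0.27 (SE, edgeR adjusted p = 0.0118). *KCNJ8* rose by 1.31 ± 0.25 (SE, edgeR adjusted p = 0.0150). The summed level of the mural list was 939 to 1458 CPM in Perthes rabbits and 590 to 968 CPM in controls. It was higher in most Perthes rabbits, with an overlap through Perthes rabbit 1. Much of this sum came from *PDGFRB* and *CSPG4*, which edgeR did not call with all rabbits. *PDGFRB* was at 259 to 485 CPM in Perthes rabbits and 183 to 393 CPM in controls. *CSPG4*, named after its values were seen, was at 146 to 543 CPM and 166 to 226 CPM. The part of the mural list in the members' levels was not tested. Without control rabbit 1 the list had 1 call and without control rabbit 2 it had 0, with 7 at an unadjusted p below 0.05 in that edgeR fit. DESeq2 called 6 with all rabbits.

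Of 15 genes of activated fibroblasts, all tested, 5 rose, or 33.3%, and 0 fell, with 8 at an unadjusted p below 0.05 in edgeR. The median log2 fold change was 0.99. *COL3A1*, a fibrillar collagen gene of healing tissue, rose from 3054 ± 3226 CPM in controls (SD, n = 3) to 15493 ± 3543 CPM in Perthes rabbits (SD, n = 5), a log2 fold change of 2.34 ± 0.67 (SE, edgeR adjusted p = 0.0474). *COL12A1* rose by 2.29 ± 0.61 (SE, edgeR adjusted p = 0.0359). *POSTN*, the periostin gene, rose by 1.68 ± 0.44 (SE, edgeR adjusted p = 0.0341). *THY1*, a surface marker of fibroblasts, rose by 1.35 ± 0.36 (SE, edgeR adjusted p = 0.0372), and *CTHRC1* was the fifth. The call of *COL3A1* was lost without any single Perthes rabbit and without control rabbit 1 or 2.

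The summed level of the fibroblast list overlapped between the groups, at 104512 to 189792 CPM in Perthes rabbits and 90299 to 128291 CPM in controls. *COL1A1*, the main collagen gene of bone, made up 44666 to 143897 CPM of it in Perthes rabbits and overlapped between the groups, while the 5 genes that rose did not. *COL1A1* was named after its values were seen. Perthes rabbit 4, lowest for *TAGLN* and *ACTA2*, was the highest for *COL12A1*, at 6453 CPM. The list had 1 call without Perthes rabbit 1, 2 without Perthes rabbit 3, 1 without Perthes rabbit 5 and 0 without control rabbit 1 or control rabbit 2. In each of these last edgeR fits 7 had an unadjusted p below 0.05, and DESeq2 called 9 with all rabbits.

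**Figure D5:**
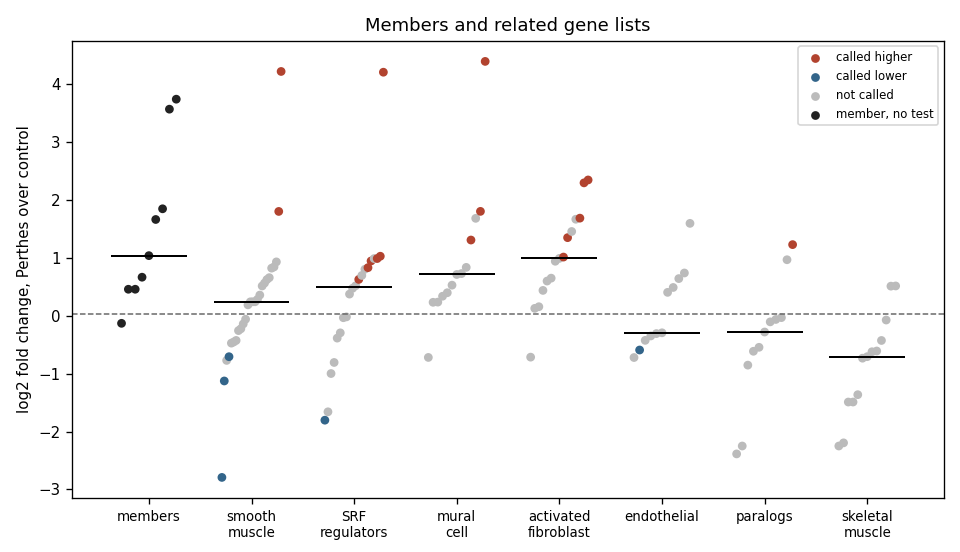
Log2 fold change, Perthes over control, of the members and of the tested genes of 7 related lists, with 1 point per gene, a solid line at the median of each list and a dashed line at the median of all genes (0.02). Red and blue points were called higher and lower by edgeR at an adjusted p below 0.05, grey points were not called, and the members were not tested.

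Relatives of the members that serve all or other cells included 2 of 11 with a log2 fold change above 0. Of 21 such genes 14 were listed and 11 tested, 1 rose and 0 fell, with 5 at an unadjusted p below 0.05 in edgeR, and the median log2 fold change was -0.28. *ACTB* averaged 4328 ± 847 CPM in the Perthes group (SD, n = 5) against 4528 ± 1698 CPM (SD, n = 3), and *MYH9* averaged 746 ± 85.8 CPM against 1142 ± 463 CPM. The direction of *ACTB* changed with the rabbits left out, and neither gene passed the test. *VIM*, the vimentin gene of mesenchymal and blood cells, rose from 993 ± 66.1 CPM in controls (SD, n = 3) to 2324 ± 654 CPM in Perthes rabbits (SD, n = 5), a log2 fold change of 1.23 ± 0.28 (SE, edgeR adjusted p = 0.0234). The call of *VIM* was lost without Perthes rabbit 3, Perthes rabbit 5 or any control rabbit. The list had 3 calls without Perthes rabbit 2 and 3 with DESeq2. It had 0 in edgeR without Perthes rabbit 3, Perthes rabbit 5, control rabbit 1 or control rabbit 2, where 3, 4, 3 and 3 genes had an unadjusted p below 0.05.

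Endothelium, the inner lining of the same vessels, was followed through 12 marker genes. Of these 11 were tested, 0 rose and 1 fell (9.09%, beside 8.86% of all genes), with 4 at an unadjusted p below 0.05 in edgeR, and the median log2 fold change was -0.30. *PECAM1* was at 74.7 to 120 CPM in Perthes rabbits and 84.3 to 155 CPM in controls, and *CDH5* at 58.6 to 94.0 CPM and 41.4 to 63.2 CPM. *VWF* was at 16.7 to 95.7 CPM and 16.4 to 18.1 CPM, a log2 fold change of 1.59 ± 0.50 (SE, edgeR adjusted p = 0.0606). *ERG*, a transcription factor of endothelial cells, fell by 0.59 on the log2 scale (standard error 0.16, adjusted p = 0.0359 from edgeR). The call of *ERG* was lost without Perthes rabbit 2, 3 or 5 or any control rabbit. The list had 1 higher and 1 lower call without Perthes rabbit 1 or 4, 1 higher call without Perthes rabbit 5, and 2 higher and 2 lower calls with DESeq2, among them *VWF* as higher (adjusted p = 0.00610). EdgeR called 0 without Perthes rabbit 2, Perthes rabbit 3 or control rabbit 1, 2 or 3, where 5, 4, 3, 5 and 5 genes had an unadjusted p below 0.05. The summed level of the list was 360 to 525 CPM in Perthes rabbits and 389 to 473 CPM in controls, with an overlap.

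Skeletal muscle makes *DES*, *TPM1* and *TPM2* as well, so its content was checked with 29 markers, of which 21 were listed and 13 tested. EdgeR called 0 of them, 4 had an unadjusted p below 0.05, and DESeq2 called 2, both lower. The median log2 fold change was -0.71. *ACTA1*, the skeletal alpha actin gene, was at 0.101, 0.337, 0.367, 0.619 and 1.46 CPM in Perthes rabbits and 0.857, 0.353 and 7.08 CPM in controls. *CKM*, muscle creatine kinase, was at most 0.709 CPM in Perthes rabbits and 1.60 CPM in controls. Control rabbit 3 was the highest of all 8 for both genes, and the summed level of the list was 106 CPM there, 32.2 and 39.0 CPM in the other controls and 23.2 to 51.1 CPM in Perthes rabbits. No marker was at 0 in all 8 libraries. *TTN*, the titin gene, was at 51.2 CPM in control rabbit 3 and at 2.29 to 15.5 CPM in Perthes rabbits, and *MYBPC1*, a myosin-binding protein gene, reached 23.3 CPM in Perthes rabbit 1. *RYR1*, the calcium release channel gene, had a log2 fold change of -0.61 ± 0.19 (SE, edgeR adjusted p = 0.0582), with every Perthes rabbit below every control, and was called lower by DESeq2 (adjusted p = 0.0140). The part of skeletal muscle RNA in the levels of *DES*, *TPM1* and *TPM2* was not tested.

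Small RNA libraries gave a further readout of muscle-related genes, in Perthes small RNA libraries 1 to 3 only, so no comparison with controls was made here. The values are RPM, reads scaled by the authors to a fixed library total. The miR-143 and miR-145 genes are neighbours that SRF and myocardin switch on in smooth muscle. ocu-miR-143-3p had 3506, 2736 and 3382 RPM in the 3 libraries and ranked 11, 14 and 12 among 401 known miRNAs. ocu-miR-145-5p was at 68.6, 70.2 and 66.5 RPM, ranked 88, 84 and 92. The arm from miR-143 therefore had far more reads in each library, and the passenger arms of miR-143 and miR-145 stayed at 14 reads or fewer. Whether reads of different miRNAs follow their amounts equally was not tested.

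Of the miRNAs of skeletal muscle, ocu-miR-206-3p was at 450, 267 and 518 RPM, ocu-miR-1-3p at 68.0, 36.2 and 75.0 RPM and ocu-miR-133a-3p at 19.2, 22.9 and 30.3 RPM. All 3 were detected in each library. In the Perthes rabbits of the gene table, *ACTA1* and *CKM* mRNA stayed at or below 1.46 CPM, while *TTN* reached 15.5 CPM and *MYBPC1* 23.3 CPM. RPM of miRNAs and CPM of mRNAs are different measures, so their levels are not compared. Counts here covered 2287350 to 2535769 reads on listed miRNAs per library, so counting error was small for the arms with many reads.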

How the data were processed

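Total RNA depleted of ribosomal RNA was made into directional libraries by the authors and sequenced as read pairs. They filtered reads with SOAPnuke, mapped them with HISAT2 2.0.4 and named RSEM 1.1.17 and HTSeq 1.99.2 for counting. The deposited values are expected counts, which share a read among genes it could come from. Another 8 per-sample columns, identical to the 8 used, were not read. For small RNA, the authors deposited raw read counts and RPM values per miRNA, for which only Perthes libraries 1 to 3 were used.

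Expected counts were rounded. In edgeR 4.0.16 (R 4.3.3), libraries were TMM-scaled, genes filtered by filterByExpr and groups compared by quasi-likelihood, and p-values of 15305 genes were adjusted by Benjamini-Hochberg. Standard errors are the log2 fold change divided by the square root of F. Log2 CPM used a prior count of 2, and the counting interval used scipy 1.17.1. The p-values set the difference between the groups against the spread between labelled rabbits, which was estimated with information shared across genes. Deposited counts of *TAGLN* had fractions in 8 libraries and those of *MYH11* in 6, so part of their reads was assigned by estimate.

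The members and lists were chosen with earlier results of these data known. Lists were fixed by gene name. The text names all members, *MYOCD*, *SRF*, *MRTFA*, *MRTFB*, *KLF4*, and from each list up to 4 called genes per direction, or the 3 most abundant genes where fewer than 2 were called, together with the first 3 of the skeletal, mural and endothelial lists and the 5 genes most like *TAGLN*. *FHL2*, *TGFB1I1*, *CTHRC1* and the marrow and cartilage genes were named to complete counts or check the tissue. Some listed genes are counted but their values are not reported here. *ACTA1* stands in both the skeletal list and the list of relatives, and for *MYH4*, which has more than 1 row, the row with more counts was used. A planned search of promoters was not run, since no sequence was at hand. Alternatives were DESeq2 1.42.0, other scalings and filters, stricter thresholds, a block for the replicate number, and fits that each omitted 1 rabbit.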

Additional observations from a re-analysis of the deposited data

Results flagged for a closer look

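Of 52 named genes, 4 had a Perthes rabbit far from the other 4 of its group on the log2 CPM scale, with a gap to its neighbour, as a share of the group's range, above Dixon's critical value. About 1 in 20 groups is flagged in this way by chance. For *MYL9* the ratio was 0.715, from Perthes rabbit 4 at 31.1 CPM against 61.5 to 80.8 CPM. For *CD248* it was 0.797, also from Perthes rabbit 4, at 4.62 CPM against 26.4 to 41.1 CPM. *MRTFB* gave 0.879, from Perthes rabbit 2 at 44.8 CPM against 57.3 to 59.2 CPM. *KDR*, the VEGF receptor gene of endothelium, gave 0.862, from Perthes rabbit 1 at 35.1 CPM against 54.3 to 58.3 CPM.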

How the results depend on the processing

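The log2 fold changes of the members kept their sign under every alternative run except for *MYL9*, which went to 0.035 with the replicate block, 0.041 without Perthes rabbit 4 and 0.034 without control rabbit 1, and was lowest at -0.32 without control rabbit 3. The median over the members ranged from 0.79 to 1.15 when single rabbits were left out, and 5 to 6 members had groups apart. With 3 controls and 5 Perthes rabbits, calls at an adjusted p depended on single libraries. Leaving out 1 rabbit at a time gave 0 to 2690 calls over all genes, 0 to 7 for smooth muscle, 0 to 8 for SRF regulators, 0 to 4 for mural cells, 0 to 5 for fibroblasts, 0 to 2 for endothelium, 0 to 3 for relatives and 0 throughout for skeletal muscle.

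With the replicate number as a replicate block, 0 genes were called over all genes and in each list, with 3152 of all genes, and 2 to 7 of each list, at an unadjusted p below 0.05. The deviations of same-numbered rabbits correlated at -0.32, 0.16 and -0.24, and those of differently numbered rabbits at -0.31 to 0.44. So few same-numbered pairs cannot decide whether the numbers stand for a pairing or for shared handling. With the thresholds raised to 2 (log2 fold change) and 1e-05 (adjusted p), edgeR likewise called 0 genes in all, with 4883 at an unadjusted p below 0.05. These are the thresholds of the paper, which reported changed genes and lncRNAs at them with DESeq2. The 0 therefore applies to edgeR's test only. In the DESeq2 fit made here, for example, *ACTG2* passed both (log2 fold change 4.22, DESeq2 adjusted p = 4.0e-11). Beyond 1 and below 0.05 edgeR called 1673 genes, with 3 of the SRF regulators and 0 of the endothelial list. DESeq2 called 3636 genes, with 6 mural, 3 relatives, 2 skeletal, 4 endothelial and 9 fibroblast genes. Library totals alone gave 1 skeletal and 2 endothelial genes. Other named genes whose sign changed, none of them called, were *KLF4* (0.0012 with the block, -0.15 to 0.20 when single rabbits were left out), *ACTB* (0.045 with the block, 0.035 without Perthes rabbit 4, -0.25 to 0.28 over single rabbits), *CKM* (0.30 with the block, -1.25 to 2.61 over single rabbits, the highest without control rabbit 3) and *PECAM1* (-0.47 to 0.010 over single rabbits). The cause of these changes was not tested.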
